A study of Homo sapiens with 18 samples.

Results

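Large extracellular matrix genes were followed through resting and arsenite-stressed glioma cells, in total RNA and in the RNA bound to a pair of stress granule proteins. The 8 genes are VCAN, FN1, ABI3BP, FBN1, TNC, THBS1, LOXL2 and COL12A1, out of 14232 genes that the platform table names by a single symbol, and each was read from its brightest transcript cluster among 22011. They were picked as glioma matrix genes with higher signal after arsenite in input or in the RNA immunoprecipitates (RIPs), so their stress changes are the values that chose them and are described here without a test. The rule names the genes and sets no numerical threshold. The rule does not use comparisons of a RIP with input or of both RIPs, and these were tested. The stressed and unstressed arrays in those tests are also part of the stress changes, so the tests in both states are not independent of the choice. The genes were also picked with earlier results of these data known.

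The cells were U251-MG, an established human astrocytoma line, grown in DMEM with 10% fetal bovine serum. In the stressed groups they received 500 µM arsenite for 30 min, and in the unstressed groups DMSO for the same time. RNA came from a RIP with an antibody to TIAR (Tial in some labels), from a RIP with an antibody to G3BP1, or from input, which is RNA of the lysate before the pull-down. Each of the 6 groups (stressed and unstressed TIAR RIP, stressed and unstressed G3BP1 RIP, stressed and unstressed input) holds 3 arrays that the labels call biological replicates. All groups are the same line, so the data describe 1 cell culture model, and no group with an unrelated antibody was analysed here.

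The extracellular matrix is a meshwork of long secreted proteins. Collagens and fibrillin form fibres, fibronectin links those fibres to integrin receptors on the cell surface, and versican, a chondroitin sulfate proteoglycan, binds hyaluronan and holds water. Matricellular proteins such as tenascin-C and thrombospondin-1 modulate adhesion rather than carry load, and lysyl oxidases crosslink the fibres. Glioma cells are known for depositing such a matrix. Their secreted proteins are translated at the endoplasmic reticulum, whereas arsenite stops translation and gathers untranslated mRNA with TIAR and G3BP1 into cytoplasmic stress granules.

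The genes lie on 7 chromosomes, and in RefSeq (GRCh38.p14) their spans run from 18.4 kb for THBS1 to 244.3 kb for ABI3BP. The promoter table held 7 of the 8 genes, all but LOXL2. The 250 bases upstream of the annotated start are shown for VCAN and FN1, which had the highest stress changes in input, and for THBS1 and COL12A1, whose upstream sequence holds the core letters of a TEAD site, with the start site just after the last base. Capitals mark TGACG, the core of a cAMP response element (CRE), and GGAATG, the core bound by TEAD factors, on either strand.
VCAN, chr5:83471494-83471743, plus strand: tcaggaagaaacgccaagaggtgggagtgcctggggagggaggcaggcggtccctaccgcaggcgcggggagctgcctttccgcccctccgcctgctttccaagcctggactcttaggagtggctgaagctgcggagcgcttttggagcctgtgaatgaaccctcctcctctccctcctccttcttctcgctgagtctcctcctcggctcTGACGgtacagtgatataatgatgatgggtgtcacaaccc
FN1, chr2:215436069-215436318, minus strand: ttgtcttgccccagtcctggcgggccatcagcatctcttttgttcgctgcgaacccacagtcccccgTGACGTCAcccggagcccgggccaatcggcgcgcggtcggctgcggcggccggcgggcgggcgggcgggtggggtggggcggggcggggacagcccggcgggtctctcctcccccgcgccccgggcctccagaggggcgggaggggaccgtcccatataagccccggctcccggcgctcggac
THBS1, chr15:39580829-39581078, plus strand: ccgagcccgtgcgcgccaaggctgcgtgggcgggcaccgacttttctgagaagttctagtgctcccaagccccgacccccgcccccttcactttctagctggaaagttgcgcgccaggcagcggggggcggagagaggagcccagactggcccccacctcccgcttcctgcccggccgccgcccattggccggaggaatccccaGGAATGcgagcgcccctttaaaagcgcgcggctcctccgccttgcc
COL12A1, chr6:75206054-75206303, minus strand: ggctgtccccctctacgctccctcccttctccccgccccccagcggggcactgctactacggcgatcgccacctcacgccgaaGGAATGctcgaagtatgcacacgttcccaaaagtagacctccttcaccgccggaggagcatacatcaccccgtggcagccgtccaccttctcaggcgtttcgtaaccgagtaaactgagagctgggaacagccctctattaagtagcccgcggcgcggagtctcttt

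Letter matches were counted in windows of 300 bases (250 before to 50 after the start) on both strands, over 35093 promoters. The full CRE, TGACGTCA, which contains TGACG on both strands, was found in FN1 alone of the 7, at position -183, and in 1.85% of all promoters. TGACG was found in FN1 and VCAN, and in 24.5% of promoters. GGAATG was found in ABI3BP (at position 9, downstream of the start), FBN1, THBS1 and COL12A1, 4 of 7, and in 14% of promoters. The EGR motif GCGNGGGCG was in FN1 and THBS1 (9.43% of promoters), and the Sp1 motif GGGCGG, which overlaps the EGR match in THBS1, was in 6 of 7 (44.9%). TATAAA was in ABI3BP alone (11.5%), at position -236 on the reverse strand and so not close to the start. CCAAT was in FN1 and THBS1 (34.6%). The AP-1 motif TGANTCA (7.71%) and the CArG box (1.29%) were in 0 of 7. The upstream stretches differ in base composition, with 60.8% G or C in VCAN and 76.4% in FN1. The FBN1 window belongs to a transcript start that lies inside the gene's RefSeq span, and its sequence is not shown. These matches describe letters and not binding.

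On the arrays, astrocytoma and glioma markers were present: VIM averaged 12.97 and CD44 12.13 on the log2 scale over 18 arrays. GFAP averaged 8.63, and S100B (4.92) and AQP4 (4.78) were low. Of the markers of other cell types, LUM (3.43), FAP (3.53), PTPRC (3.65) and EPCAM (3.41) were low. Others were not: the fibroblast collagens COL1A2 and COL1A1 averaged 9.46 and 8.75, the myeloid gene CD68 9.56, the keratins KRT8, KRT18 and KRT19 11.93, 10.58 and 8.17, and the neurofilament gene NEFL 13.32. The summed linear signal of 9 fibroblast and pericyte markers on the array (of 11 listed) ran from 5892 to 6205 in stressed and from 4723 to 5102 in unstressed TIAR RIPs, from 5852 to 6380 and from 3805 to 4443 in G3BP1 RIPs, and from 4596 to 5032 and from 4470 to 4646 in input. THY1 was the brightest of them, at 11.59. The part of these markers in the results was not tested. The array of replicate 1 in stressed input and that of replicate 3 in the unstressed G3BP1 RIP stood apart, with mean correlations to their own group of 0.9802 and 0.9799, against 0.9847 to 0.9946 for the other arrays. The 8 matrix genes averaged 0.47 log2 units lower on the first and 0.38 lower on the second than the mean of the other arrays of the same group. Stress changes of the members are also given without both arrays, and antibody differences are given so for some genes only. Others moved as well. Without both arrays VCAN in the stressed G3BP1 RIP against input was 1.40 in place of 1.66. COL12A1 in the stressed TIAR RIP against input was 1.08 in place of 1.32. ABI3BP in the unstressed TIAR against the G3BP1 RIP was 0.15 in place of 0.39.

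Versican mRNA (VCAN) had the highest stress change of the 8 in every RNA sample. VCAN signal in TIAR RIPs was 11.61, 11.23 and 11.42 (log2) in stressed cells, against 9.80, 9.72 and 9.48 in unstressed cells. VCAN signal in G3BP1 RIPs was 11.41, 11.32 and 11.40 in stressed cells, against 10.07, 10.00 and 9.37 in unstressed cells. VCAN signal in input was 9.21, 10.00 and 9.95 in stressed cells, against 8.65, 8.55 and 8.54 in unstressed cells. Stressed arrays were above unstressed arrays in all 3 RNA samples, and both stressed RIPs overlapped each other at the top. The stress change was 1.75 in TIAR RIPs, 1.56 in G3BP1 RIPs and 1.14 in input (SE 0.20 each), and leaving out both arrays that stand apart gave 1.75, 1.34 and 1.39.

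FN1 encodes fibronectin, the glycoprotein that joins collagen and fibrin to integrins. FN1 signal in TIAR RIPs was 11.00, 10.72 and 10.80 in stressed cells, against 9.22, 9.27 and 9.02 in unstressed cells. FN1 signal in G3BP1 RIPs was 11.88, 11.86 and 11.94 in stressed cells, against 10.79, 10.77 and 10.52 in unstressed cells. FN1 signal in input was 9.69, 10.27 and 10.24 in stressed cells, against 9.10, 8.94 and 8.95 in unstressed cells. The stressed G3BP1 RIP was the highest group with no overlap, and unstressed TIAR RIP and unstressed input overlapped at the bottom. The stress changes were 1.67, 1.20 and 1.07 (SE 0.14 each) in TIAR RIPs, G3BP1 RIPs and input, and 1.67, 1.11 and 1.26 without both arrays that stand apart. A second, dimmer FN1 transcript cluster averaged 7.29 and 6.65 in stressed and unstressed TIAR RIPs, 7.70 and 7.0 in G3BP1 RIPs, and 6.94 and 6.80 in input. Its stressed input arrays (6.59, 7.04 and 7.20) overlapped its unstressed ones (6.90, 6.69 and 6.81), unlike those of the brighter cluster. With the mean of both clusters, the FN1 stress changes were 1.15, 0.95 and 0.61.

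ABI3BP encodes a secreted matrix protein named for its binding to ABI3. ABI3BP signal in TIAR RIPs was 10.87, 10.51 and 10.52 in stressed cells, against 9.01, 9.15 and 8.81 in unstressed cells. ABI3BP signal in G3BP1 RIPs was 10.10, 9.91 and 10.07 in stressed cells, against 8.81, 8.86 and 8.11 in unstressed cells. ABI3BP signal in input was 8.03, 8.79 and 8.74 in stressed cells, against 7.76, 7.66 and 7.72 in unstressed cells. Its highest group was the stressed TIAR RIP, which lay above the stressed G3BP1 RIP with no overlap. The stress changes were 1.64, 1.43 and 0.81 (SE 0.21 each) in TIAR RIPs, G3BP1 RIPs and input, and 1.64, 1.19 and 1.05 without both arrays that stand apart.

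FBN1 encodes fibrillin-1, the backbone of microfibrils that support elastic fibres and store latent TGF-beta. FBN1 signal in TIAR RIPs was 8.94, 8.78 and 8.96 in stressed cells, against 7.67, 7.61 and 7.44 in unstressed cells. FBN1 signal in G3BP1 RIPs was 10.83, 10.76 and 10.88 in stressed cells, against 9.68, 9.61 and 8.95 in unstressed cells. FBN1 signal in input was 7.90, 8.36 and 8.51 in stressed cells, against 7.73, 7.59 and 7.70 in unstressed cells. The stressed G3BP1 RIP stood above every other group, and unstressed TIAR RIP and unstressed input overlapped at the low end. The FBN1 stress change was 1.32 in TIAR RIPs, 1.41 in G3BP1 RIPs and 0.58 in input (SE 0.17 each), and leaving out both arrays gave 1.32, 1.18 and 0.76.

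TNC encodes tenascin-C, a hexameric matricellular glycoprotein of developing and injured brain that is abundant in glioma. TNC signal in TIAR RIPs was 11.30, 11.35 and 11.30 in stressed cells, against 10.14, 10.02 and 10.00 in unstressed cells. TNC signal in G3BP1 RIPs was 12.77, 12.60 and 12.80 in stressed cells, against 11.78, 11.73 and 11.53 in unstressed cells. TNC signal in input was 11.02, 11.23 and 11.24 in stressed cells, against 10.35, 10.21 and 10.25 in unstressed cells. None of the 6 groups overlapped its neighbour in order, from unstressed TIAR RIP at the bottom to stressed G3BP1 RIP at the top. The stress changes were 1.26, 1.04 and 0.90 (SE 0.09 each) in TIAR RIPs, G3BP1 RIPs and input, and 1.26, 0.97 and 0.97 without both arrays.

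THBS1 encodes thrombospondin-1, a matricellular trimer that activates latent TGF-beta and restrains vessel growth. THBS1 signal in TIAR RIPs was 12.29, 12.33 and 12.34 in stressed cells, against 11.70, 11.59 and 11.58 in unstressed cells. THBS1 signal in G3BP1 RIPs was 13.02, 12.90 and 13.06 in stressed cells, against 12.53, 12.49 and 12.43 in unstressed cells. THBS1 signal in input was 12.07, 12.18 and 12.19 in stressed cells, against 11.52, 11.40 and 11.44 in unstressed cells. Its 6 groups also formed a ladder with no overlap between neighbours, with unstressed input at the bottom. The stress changes were close to each other, at 0.70 in TIAR RIPs, 0.51 in G3BP1 RIPs and 0.69 in input (SE 0.07 each), or 0.70, 0.48 and 0.73 without both arrays.

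COL12A1 encodes the chain of collagen XII, which decorates collagen fibrils and bridges them to other matrix proteins. COL12A1 signal in TIAR RIPs was 11.12, 10.75 and 10.94 in stressed cells, against 9.71, 9.77 and 9.51 in unstressed cells. COL12A1 signal in G3BP1 RIPs was 11.70, 11.64 and 11.66 in stressed cells, against 10.75, 10.68 and 10.21 in unstressed cells. COL12A1 signal in input was 9.13, 9.89 and 9.82 in stressed cells, against 8.99, 8.95 and 8.92 in unstressed cells. Stressed input overlapped unstressed TIAR RIP, and its replicate 1, at 9.13, lay just above the highest unstressed input array, at 8.99. The stress changes were 1.27, 1.12 and 0.67 (SE 0.18 each) in TIAR RIPs, G3BP1 RIPs and input, and 1.27, 0.95 and 0.91 without both arrays that stand apart.

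LOXL2 encodes lysyl oxidase-like 2, which oxidises lysines of collagen IV and other matrix proteins so that they crosslink. LOXL2 signal in TIAR RIPs was 11.71, 11.83 and 11.74 in stressed cells, against 10.76, 10.73 and 10.76 in unstressed cells. LOXL2 signal in G3BP1 RIPs was 12.44, 12.41 and 12.40 in stressed cells, against 12.16, 12.01 and 12.18 in unstressed cells. LOXL2 signal in input was 11.59, 11.63 and 11.67 in stressed cells, against 10.76, 10.75 and 10.73 in unstressed cells. The unstressed G3BP1 RIP already lay above the stressed TIAR RIP, and unstressed TIAR RIP and unstressed input had the same mean, 10.75. The stress change was 1.01 in TIAR RIPs, 0.30 in G3BP1 RIPs and 0.88 in input (SE 0.07 each), the lowest G3BP1 value of the 8, and 1.01, 0.33 and 0.90 without both arrays.

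**Figure D1:**
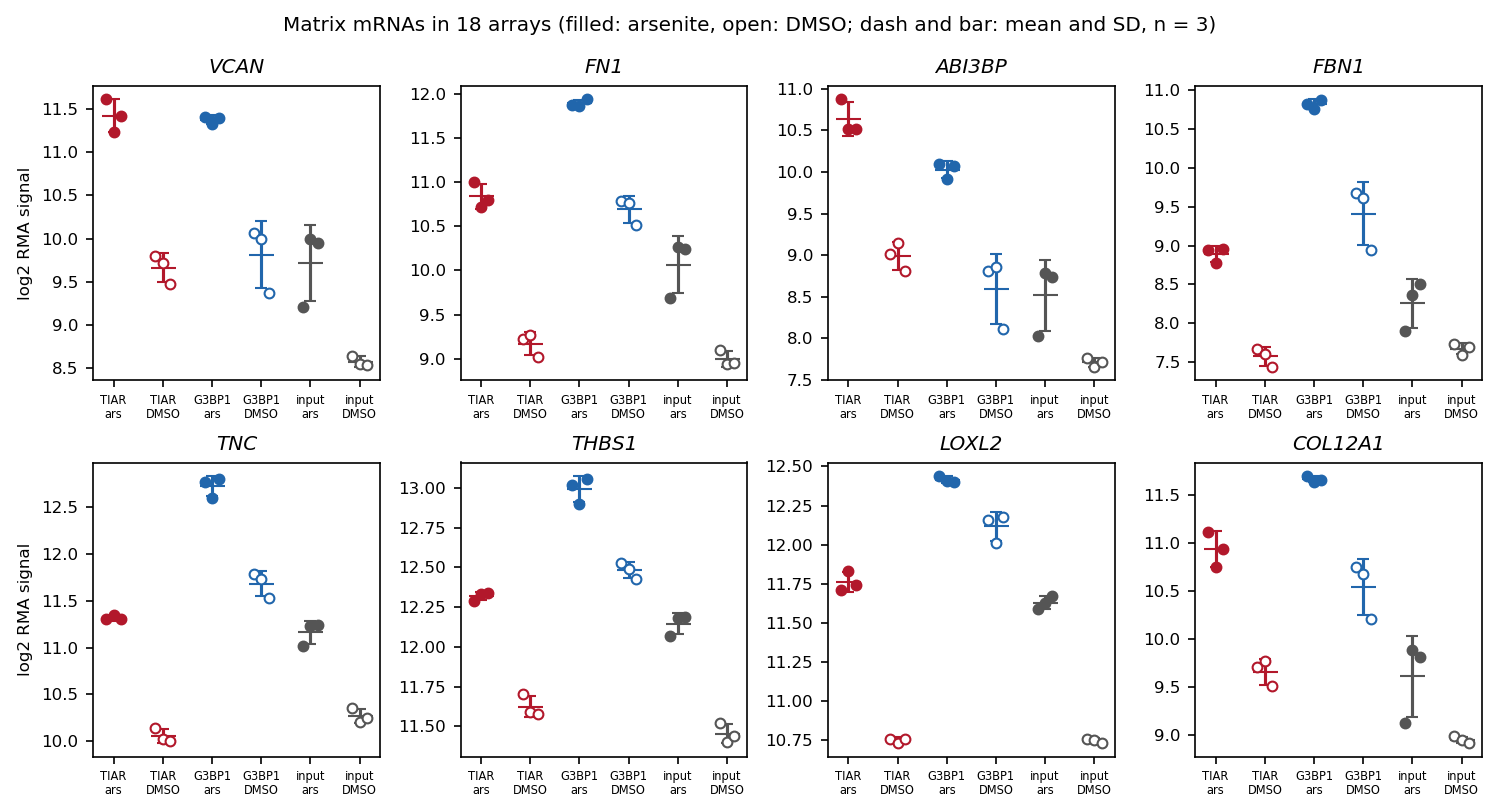
Log2 RMA signal (y) of each matrix gene on 18 arrays by group (x), with filled points for arsenite, open points for DMSO, and the mean and SD of 3 arrays. In every panel the stressed arrays of an RNA sample lie above its unstressed arrays, and FBN1 reaches 10.82 in the stressed G3BP1 RIP, against 8.89 in the stressed TIAR RIP and 8.25 in stressed input.

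Over the 8 genes the median stress change was 1.30 in TIAR RIPs, 1.16 in G3BP1 RIPs and 0.84 in input, while the medians over all transcript clusters were 0.00, 0.01 and -0.03. For all 8 genes the stressed arrays lay above the unstressed arrays in each RNA sample. The same held for 15.3% of all transcript clusters in TIAR RIPs, 18.2% in G3BP1 RIPs and 8.99% in input, and because the genes were chosen on these changes nothing is read from that comparison. In bulk RNA a higher signal in a larger share of cells and more RNA per cell cannot be told apart. The 3 stress changes use different arrays, but they are values of the same genes and so not independent of the choice.

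**Figure D2:**
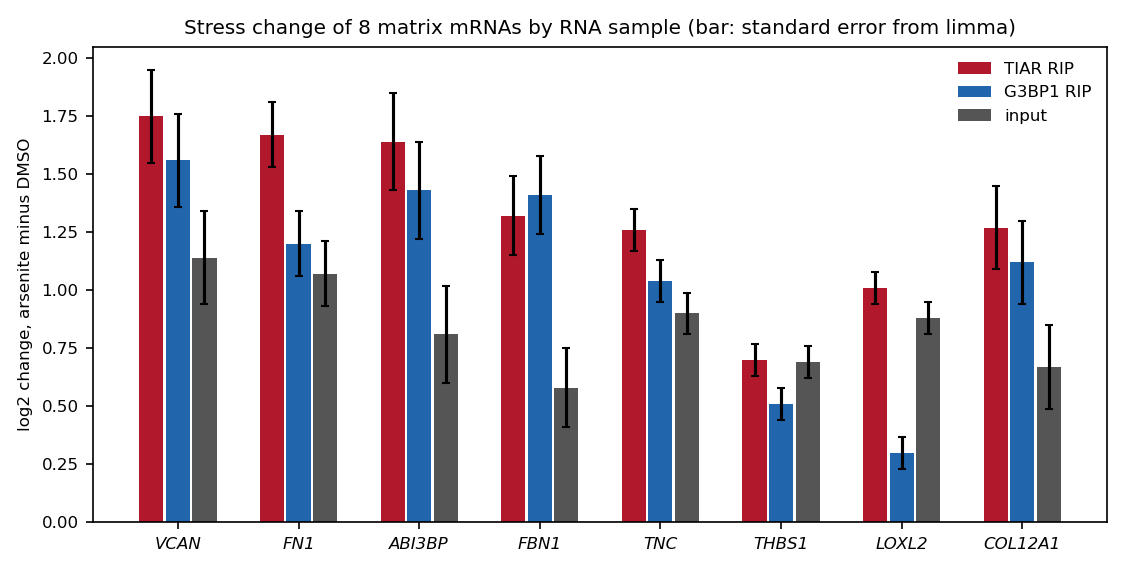
Log2 change with arsenite (stressed minus unstressed, y) of the 8 matrix genes in TIAR RIPs, G3BP1 RIPs and input, with standard errors from the limma fit. VCAN has the tallest bars in all 3 (1.75, 1.56 and 1.14), and LOXL2 shows 0.30 in G3BP1 RIPs beside 1.01 in TIAR RIPs and 0.88 in input.

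The stress change in TIAR RIPs exceeded that in input by a median of 0.60 over the 8 genes, with a range from 0.00 for THBS1 to 0.84 for ABI3BP. Without both arrays that stand apart the median was 0.36, with -0.04 for THBS1 and 0.59 for ABI3BP. The stress change in G3BP1 RIPs exceeded that in input by a median of 0.29, from -0.58 for LOXL2 to 0.83 for FBN1, and the median was -0.02 without both arrays. FBN1 kept a difference of 0.42 and LOXL2 one of -0.57 in that setting, whereas VCAN had -0.05 in place of 0.43. TIAR RIPs against G3BP1 RIPs gave a median of 0.20 (0.37 without both arrays), with 0.71 for LOXL2 (0.68) and -0.09 for FBN1 (0.14). These differences come from the changes that chose the genes and were not tested.

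Relative to input, the G3BP1 RIP held more signal of every one of these matrix mRNAs, with and without stress. In stressed cells all 8 genes were higher in G3BP1 RIPs than in input (limma, Benjamini-Hochberg adjusted p from 6.9e-09 to 2.7e-05), beside 29.3% of all transcript clusters. That share takes in dim clusters, whereas the 8 genes lie between percentiles 63.5 and 96.1 of mean signal. With the lowest 50% of clusters left out, 5350 were called higher, against 6440 of all 22011. The stressed arrays are part of the stress changes that chose the genes, so these p-values and the ranks below are not independent of the choice. FBN1, the microfibril gene, had the widest difference at 2.57 (SE 0.17, 5.93-fold), rank 16 of 22011 from the top. COL12A1 followed with 2.05 (SE 0.18, 4.13-fold) and rank 98, and FN1 with 1.82 (SE 0.14, 3.54-fold) and rank 199. With the mean of both FN1 clusters the FN1 difference was 1.29, below the 1.66 of VCAN. THBS1 and LOXL2 had the narrowest differences, 0.85 and 0.79 (SE 0.07 each). Without both arrays the median was 1.44 in place of 1.61, and FBN1 stood at 2.39. The lowest median under any alternative was 1.33.

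In unstressed cells all 8 were again higher in G3BP1 RIPs than in input (adjusted p from 8.9e-10 to 0.00286), while 20.7% of all transcript clusters were called higher. The unstressed arrays also enter the stress changes that chose the genes, so these p-values too are not independent of the choice. The difference ranged from 0.88 (SE 0.21) for ABI3BP to 1.74 (SE 0.17) for FBN1, with a median of 1.39 beside 0.00 over all transcript clusters. Without both arrays that stand apart all 8 were called again, with a median of 1.47. LOXL2 was 2.58-fold and FN1 3.24-fold higher in the unstressed G3BP1 RIP than in unstressed input, and with the mean of both FN1 clusters the FN1 difference was 0.95 in place of 1.70 on the log2 scale. For LOXL2 the difference was 0.79 in stressed and 1.37 in unstressed cells, and for THBS1 it was 0.85 and 1.03.

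The TIAR RIP divided the group. In stressed cells 5 of the 8 genes were called higher in TIAR RIPs than in input, against 20.3% of all transcript clusters. The stressed arrays are part of the stress changes that chose the genes, so these calls are not independent of the choice. The share takes in dim clusters: with the lowest 50% left out, 3836 clusters were called higher, against 4468 of all 22011. FN1 and FBN1 were not called in unstressed cells, and their stress change in TIAR RIPs exceeded that in input by 0.60 and 0.74. ABI3BP differed by 2.11 (SE 0.21, 4.32-fold, adjusted p = 1.0e-06) and held rank 62 from the top. VCAN differed by 1.71 (SE 0.20, adjusted p = 6.1e-06), COL12A1 by 1.32 (SE 0.18, adjusted p = 2.2e-05), FN1 by 0.77 (SE 0.14, adjusted p = 2.9e-04) and FBN1 by 0.64 (SE 0.17, adjusted p = 0.00716). With the mean of both FN1 clusters the FN1 difference was 0.56. TNC, THBS1 and LOXL2 differed by 0.15, 0.17 and 0.13 and were not called (adjusted p = 0.191, 0.0571 and 0.117), although THBS1 was called under 6 of 29 alternatives and TNC under 1. The same 5 genes were called without both arrays, at 1.87 for ABI3BP and 0.46 for FBN1.

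In unstressed cells 3 genes were called higher in TIAR RIPs than in input, against 16.8% of all transcript clusters. They were ABI3BP (1.28, SE 0.21, adjusted p = 1.2e-04), VCAN (1.09, SE 0.20, adjusted p = 4.0e-04) and COL12A1 (0.71, SE 0.18, adjusted p = 0.00424). The unstressed arrays enter the stress changes that chose the genes, so these calls too are not independent of the choice. FN1 at 0.17, FBN1 at -0.10, THBS1 at 0.17, LOXL2 at 0.00 and TNC at -0.21 were not called, with adjusted p from 0.0685 to 0.973. Leaving out both arrays that stand apart, TNC at -0.21 (adjusted p = 0.0148) was also called lower and THBS1 at 0.17 (adjusted p = 0.0263) higher. LOXL2 in the unstressed TIAR RIP had the level of input (SE 0.07), or up to 0.17 above it under the alternatives, while its G3BP1 RIP was 1.37 above input.

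**Figure D3:**
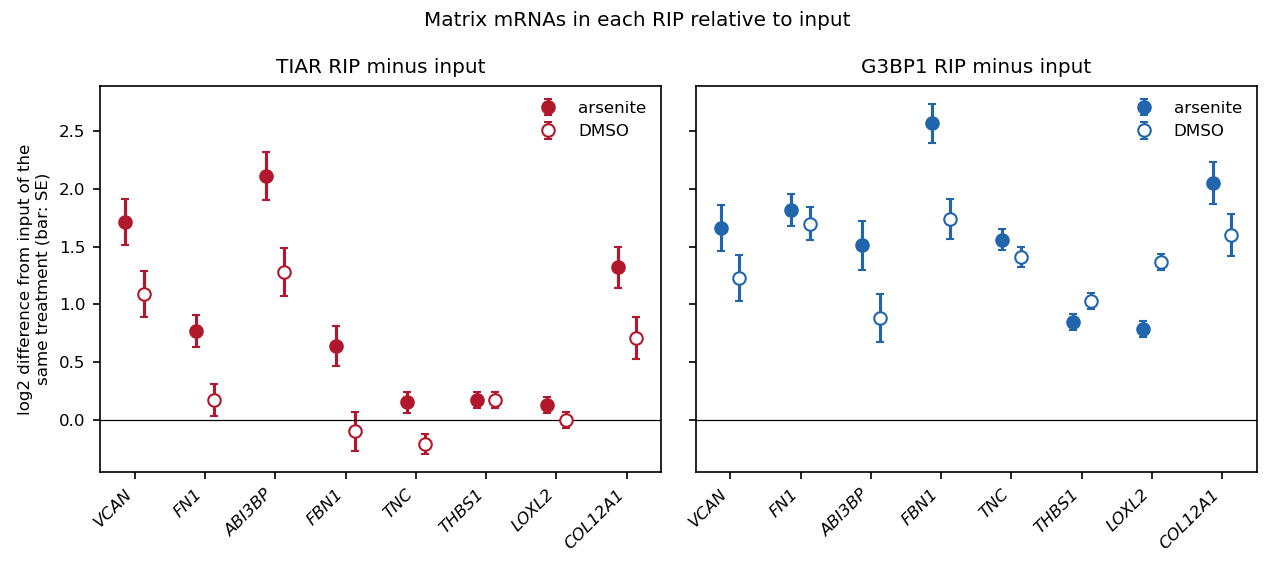
Log2 difference from input of the same treatment (y, with SE) for each matrix gene, in TIAR RIPs (left) and G3BP1 RIPs (right), with filled points for stressed and open points for unstressed cells. All G3BP1 points lie between 0.79 and 2.57, whereas the TIAR points run from -0.21 (TNC, unstressed) to 2.11 (ABI3BP, stressed).

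Set directly against each other, the RIPs differed for 6 genes in both states. The upper quartile of signal ran from 9.42 to 9.54 on stressed TIAR arrays and from 9.78 to 9.92 on stressed G3BP1 arrays. The part of this level in the differences was not tested. In stressed cells FN1, FBN1, TNC, THBS1, LOXL2 and COL12A1 were lower in TIAR than in G3BP1 RIPs (28.7% of all transcript clusters were), with differences from -0.66 (LOXL2) to -1.93 (FBN1). The 6 calls held under all 29 alternatives, but LOXL2 moved to as little as -0.43 and THBS1 (-0.67) to -0.45. The median of the 8 genes (-0.70) moved to as little as -0.47. With the mean of both FN1 clusters the FN1 difference was -0.73 in place of -1.05. Arrays of both states are part of the stress changes that chose the genes. The calls in both states are therefore not independent of the choice. ABI3BP was the 1 gene higher in the stressed TIAR RIP, by 0.61 (SE 0.21, adjusted p = 0.0259), beside 15.6% of all transcript clusters. That call was lost without replicate 1 of the stressed TIAR RIP (0.49, adjusted p = 0.113) and without replicate 2 of the stressed G3BP1 RIP (0.55, adjusted p = 0.0855). VCAN differed by 0.05 (SE 0.20, adjusted p = 0.883).

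In unstressed cells the same 6 genes were lower in TIAR RIPs, with differences from -0.86 (THBS1) to -1.84 (FBN1), beside 27.5% of all transcript clusters. That share takes in dim clusters: with the lowest 50% left out, 4855 were called lower, against 6054 of all 22011. The 6 calls held under all 29 alternatives, and the median of the 8 genes (-1.13) ran from -1.19 to -0.91. With the mean of both FN1 clusters the FN1 difference was -0.94 in place of -1.52. LOXL2 had -0.66 in stressed cells and -1.37 in unstressed cells (SE 0.07 each, adjusted p = 6.5e-07 and 1.8e-10). VCAN at -0.15 (SE 0.20, adjusted p = 0.612) and ABI3BP at 0.39 (SE 0.21, adjusted p = 0.139) were not called. Without both arrays VCAN was called lower, at -0.37 (adjusted p = 0.0109).

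The genes varied together to different degrees. Over the 18 arrays Pearson's r between a pair of them ran from 0.521 (ABI3BP and LOXL2) to 0.982 (FN1 and THBS1, and TNC and THBS1). ABI3BP and VCAN, the pair with the widest TIAR differences from input, had r = 0.969 with each other, and ABI3BP had 0.534 with TNC and 0.577 with FBN1. These points share the 6 groups and the same arrays, so r describes the order of the groups. The 8 genes most like their mean (r over 18 arrays, among 5866 genes with group means at least 1 log2 unit apart) were EMC1 (0.983), COL14A1 (0.979), GPNMB (0.975), SRRM2 (0.972), SUN1 (0.971), FREM2 (0.970), TPBG (0.969) and GLG1 (0.967). EMC1 encodes a subunit of the endoplasmic reticulum membrane complex, COL14A1 a collagen close to collagen XII, and FREM2 a basement membrane protein.

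Each member was also set against single genes. ABI3BP was most like F2R (r = 0.991), the thrombin receptor, and PODXL (0.981). FBN1 was most like ITGA5 (0.995), the fibronectin receptor chain, and LAMA1 (0.994), a laminin chain. TNC followed ATP13A1 (0.993) and NUP210 (0.986), and THBS1 followed GANAB (0.991) and NUP210 (0.983). LOXL2 followed RDH11 (0.985) and GANAB (0.979), and COL12A1 followed FREM2 and NRP2 (0.990 each). FN1 followed GLG1 (0.985) and COL14A1 (0.978), and VCAN followed DSG2 (0.967) and ITGA2 (0.960).

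The members' relatives and partners were read from 6 lists (167 genes, 146 on the array and none of them a member). In G3BP1 RIPs against input, 77 of the 146 were called higher and 9 lower in stressed cells, and 72 and 8 in unstressed cells, against 29.3% and 20.7% of all transcript clusters called higher and 15.2% and 19.2% called lower. These shares were not matched to the signal of the listed genes. In TIAR RIPs 33 were called higher and 32 lower in stressed cells, and 22 and 31 in unstressed cells. Over all transcript clusters 20.3% and 16.8% were called higher and 23.5% and 23.8% lower, so these counts lay near the background. Called stress changes were 43 higher and 2 lower in TIAR RIPs (6.15% of all transcript clusters were called higher and 5.71% lower), 49 and 0 in G3BP1 RIPs (10.4% and 4.08%) and 28 and 3 in input (2.52% and 11.2%). The median stress change of the 146 was 0.07, 0.15 and 0.11, beside the 1.30, 1.16 and 0.84 of the 8 genes. The 8 genes were chosen on these changes, so nothing is read from the gap.

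Among 26 paralogs on the array, 12 were called higher and 1 lower in the stressed G3BP1 RIP than in input. In all lists such counts stand beside 29.3% of all transcript clusters higher and 15.2% lower in this RIP, and 20.3% and 23.5% in the stressed TIAR RIP. LTBP1, which tethers latent TGF-beta to fibrillin, was higher by 2.04 (SE 0.16) and FBN2, fibrillin-2, by 1.55 (SE 0.11), as FBN1 was by 2.57. LTBP3 was higher by 1.51 in that RIP, while its difference from input in the stressed TIAR RIP was -0.56 (SE 0.08 each). LOX, the lysyl oxidase related to LOXL2, was higher by 1.10 (SE 0.22) in the stressed TIAR RIP, where LOXL2 differed by 0.13. Only COL14A1 of these paralogs had a called stress change in input, at 0.60 (SE 0.19, adjusted p = 0.0455), and that call was lost under 13 of 29 alternatives.

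Binding partners of the members in the matrix showed 14 of 29 higher and 6 lower in the stressed G3BP1 RIP than in input, and 7 higher and 8 lower in the stressed TIAR RIP, the TIAR counts near the background. NID1, nidogen-1 of the basement membrane, was higher in both, by 1.27 and 1.04 (SE 0.10 each). Fibulin-1 (FBLN1) differed from input by 0.90 in the stressed G3BP1 RIP and by -0.82 in the stressed TIAR RIP (SE 0.08 each). Of 26 other collagens 12 were higher and 1 lower in the stressed G3BP1 RIP, with COL1A2 at 1.55 (SE 0.11) and COL4A2 at 1.18 (SE 0.08), against 1 higher and 5 lower in the TIAR RIP. Among 21 collagen enzymes and secretion factors 13 were higher and 0 lower in the stressed G3BP1 RIP, including the lysyl hydroxylase PLOD1 at 1.13 (SE 0.07). In the stressed TIAR RIP 4 were higher and 8 lower, with SEC24D, a coat protein for collagen export, at 1.99 (SE 0.17) and PLOD1 at -0.61 (SE 0.07).

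Of 25 matrix receptors 12 were called higher and 3 lower than in input in the TIAR RIP of stressed cells, and in the stressed G3BP1 RIP 16 were higher and 0 lower. EGFR was higher by 1.66 in the TIAR RIP and by 1.64 in the G3BP1 RIP (SE 0.12 each). ITGA5, the integrin chain that binds fibronectin, was higher by 1.35 in the G3BP1 RIP and by 0.30 in the TIAR RIP (SE 0.09 each). Of 19 proteases and inhibitors that act on the members, 10 were higher and 1 lower in the stressed G3BP1 RIP, with TIMP2 at 1.55 (SE 0.08) and MMP2 at 1.43 (SE 0.09). In the stressed TIAR RIP 5 were higher and 4 lower, and TIMP1 was among the lower ones with a difference of -0.84 (SE 0.12). With stress, TIMP1 was higher by 1.09 in TIAR RIPs and by 1.01 in G3BP1 RIPs (SE 0.12 each).

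**Figure D4:**
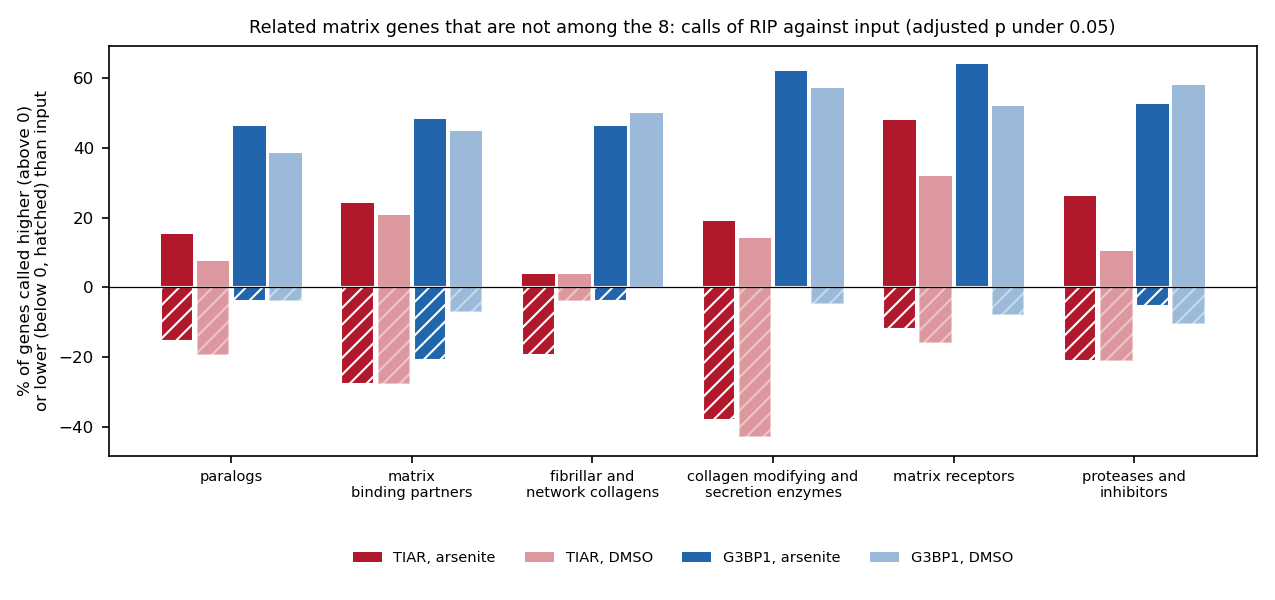
Percent of the genes of 6 lists related to the members (x) that were called higher (above 0) or lower (below 0, hatched) in a RIP than in input of the same treatment (y). In the stressed G3BP1 RIP every list has more genes higher than lower, with 16 of 25 receptors and 13 of 21 enzymes higher, while for TIAR the enzymes show 8 lower and 4 higher.

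Span of the gene in the genome was set beside the changes, since 7 of the 8 genes span over 75 kb. Genes of 75 to 150 kb other than the members (1837 genes) had a median stress change of -0.04 in TIAR RIPs, -0.01 in G3BP1 RIPs and -0.18 in input, and genes over 150 kb (1592 genes) had -0.06, -0.02 and -0.16. In input 25.3% of the genes over 150 kb were called lower with stress and 1.19% higher, against 5.84% and 2.17% of genes under 10 kb. ABI3BP and FBN1, both over 150 kb, were 0.81 and 0.58 higher in stressed input, but the members were chosen on such changes and nothing is read from the contrast. The antibody differences did move with span: in the stressed G3BP1 RIP against input the median was 0.38 in genes over 150 kb, 0.35 from 75 to 150 kb and -0.03 under 10 kb, beside 1.61 for the members. In the stressed TIAR RIP against input these medians were 0.31, 0.24 and -0.20, beside 0.70. The share called higher than input moved too. In the stressed G3BP1 RIP it was 52% over 150 kb, 47.6% from 75 to 150 kb and 20.2% under 10 kb. It was 33.9%, 31% and 12.2% in the unstressed G3BP1 RIP. In the stressed TIAR RIP it was 48.2%, 42.8% and 6.58%, and in the unstressed TIAR RIP 39.9%, 34.1% and 6.87%. THBS1 spans 18.4 kb, and its difference of 0.85 in the stressed G3BP1 RIP stood beside a median of 0.06 in genes of 10 to 25 kb. The part of gene span in the members' values was not tested.

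**Figure D5:**
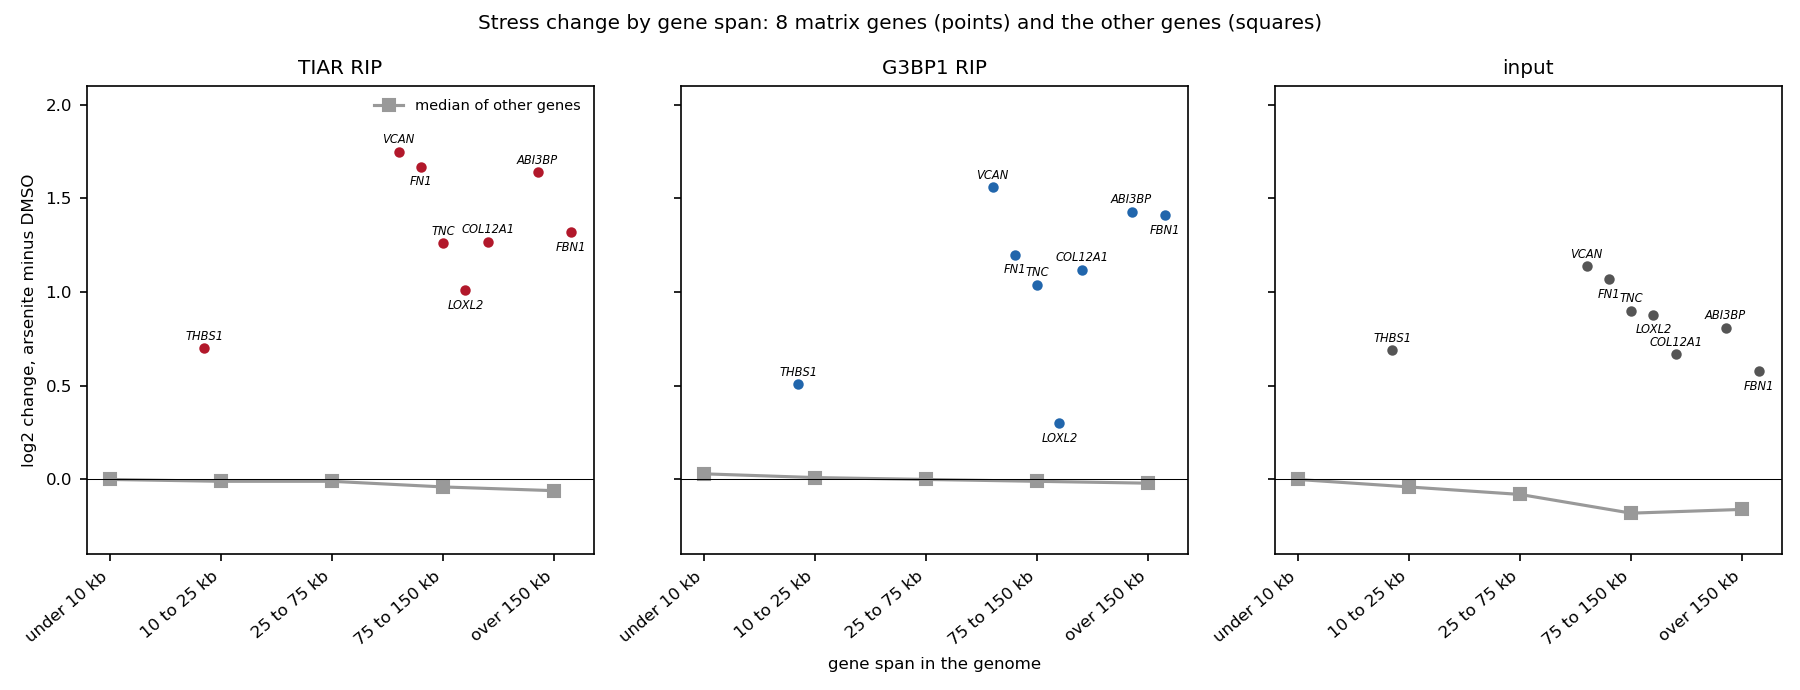
Log2 change with arsenite (y) against classes of gene span (x) in TIAR RIPs, G3BP1 RIPs and input, with the members as points (spread sideways within a class) and the median of the other genes of each class as squares. The squares lie between -0.18 and 0.03, and all 8 genes lie above them in each panel. The genes were chosen on these changes, so nothing is read from that.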

How the data were processed

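RNA of 18 samples was measured on Affymetrix arrays. The deposited values are log2 signals, 1 per transcript cluster, which the authors made with RMA in Affymetrix Expression Console, per the submitters' processing notes. Whether all arrays were normalised together is not given in the sources used here. The values give the makeup of a RIP or input sample, not the amount of RNA recovered. With 3 arrays a group the precision is limited. Each p-value rests on a spread between replicate arrays that is pooled over all 6 groups and drawn toward that of other transcript clusters. Arrays outside the compared groups therefore enter it.

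Groups came from the labels. Of 22011 transcript clusters, 14432 had a single gene symbol in the platform table, 2408 several and 5171 none. The symbols stand for 14232 genes, each read from its brightest transcript cluster by mean. All transcript clusters and arrays entered 1 linear model of 6 group means in limma 3.58.1 (lmFit and eBayes, R 4.3.3), with no filter. Two-sided moderated tests of the 6 antibody comparisons, and of the 3 stress changes for genes other than the members, were adjusted by Benjamini-Hochberg over 22011 transcript clusters, and an adjusted p under 0.05 was called. The fit was tested on simulated data. Errors of changes are standard errors from the fit.

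The members, the gene lists and the motifs were chosen with earlier results of these data known. Besides the members, the text draws on up to 4 called genes per list and comparison with the smallest p, the 8 genes most correlated with the members' mean and the 2 most correlated with each member. A planned grouping by protein length was not run, and gene span in RefSeq (14205 of 14232 genes matched) was used instead, a choice made after seeing the data. Promoter sequences are RefSeq's, on GRCh38.p14. Alternatives were a replicate block, leaving out arrays, fitting the compared groups only, array weights, a robust prior with an intensity trend, filters on the lowest 25% or 50%, median centring, quantile and cyclic loess normalization, and the mean of a gene's transcript clusters.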

Additional observations from a re-analysis of the deposited data

Results flagged for a closer look

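TNC, the tenascin-C gene, stood on opposite sides of input in the TIAR RIP of the treatments. In stressed cells all 3 TIAR arrays (11.30, 11.35 and 11.30) lay above all 3 input arrays (11.02, 11.23 and 11.24), a difference of 0.15. In unstressed cells all 3 TIAR arrays (10.14, 10.02 and 10.00) lay below all 3 input arrays (10.35, 10.21 and 10.25), a difference of -0.21. Neither passed the limma test (adjusted p = 0.191 in stressed and 0.0723 in unstressed cells), and the difference between the treatments was not tested. The unstressed difference was called under 6 of 29 alternatives (adjusted p = 0.0148 without both arrays that stand apart) and the stressed one under 1 (median centring, adjusted p = 0.0256). Without both arrays the stressed difference was 0.08.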

How the results depend on the processing

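Of 29 alternatives, none changed the calls of all 8 genes as higher in G3BP1 RIPs than in input, with or without stress. The 3 genes called in the unstressed TIAR RIP against input became 5 without both arrays that stand apart, without the lowest 50% of transcript clusters, with median centring and with quantile normalization, and 6 with array weights. Leaving out single arrays gave 3 to 5. These counts take both directions. TNC was called lower without both arrays, without the lowest 50%, with array weights and without some single arrays. In that comparison FBN1 turned to 0.07 with median centring and 0.04 with quantile normalization. LOXL2 (0.00) lay at -0.01 to 0.02 without single arrays and at -0.01 to 0.17 under the other alternatives, and was called in none. VCAN in the unstressed TIAR against the G3BP1 RIP turned to 0.04 with median centring and 0.10 with quantile normalization. In the stressed RIPs VCAN ran from -0.05 to 0.14 without single arrays and from 0.05 to 0.29 under the other alternatives, and was called in none. ABI3BP in the unstressed TIAR against the G3BP1 RIP was called higher with median centring (0.58, adjusted p = 0.00697), quantile normalization (0.69, adjusted p = 8.9e-04) and cyclic loess (0.58, adjusted p = 0.00345). The cause was not tested.

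The median excess of the TIAR stress change over input was 0.36 without both arrays, 0.40 with array weights and 0.26 with quantile normalization, and 0.36 to 0.72 without single arrays. That of G3BP1 was -0.02, -0.01 and, with cyclic loess, 0.05. That of TIAR over G3BP1 was 0.37 without both arrays and 0.13 to 0.37 without single arrays. Called stress changes in input among the listed genes (31) became 52 without both arrays, 54 with array weights, 53 with quantile normalization and with cyclic loess, 14 with the compared groups alone and 19 to 43 without single arrays. With the compared groups alone the G3BP1 stress calls were 20 in place of 49 and the stressed TIAR calls against input 40 in place of 65. Array weights gave 81 in place of 53 in the unstressed TIAR RIP against input.

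Over all transcript clusters, calls higher with stress ranged from 218 to 1742 in input (554), 892 to 2922 in TIAR RIPs (1353) and 605 to 3103 in G3BP1 RIPs (2290), and calls lower from 1269 to 3719 (2472), 799 to 2563 (1256) and 261 to 3386 (899). In RIP comparisons, calls higher reached 5556 with median centring in the unstressed TIAR RIP against input (3693). Calls lower in the stressed G3BP1 RIP against input ranged from 1890 to 5696 (3339), and calls higher in the stressed TIAR against the G3BP1 RIP reached 6084 (3440). Same-numbered arrays did not vary together throughout, with 13 of 45 pairs of deviations above r = 0.1 (from -0.41 to 0.42). For replicate 1, however, pairs of RIP groups had r from 0.15 to 0.35, and each RIP group had r from -0.41 to -0.29 with stressed input. For replicate 3 the unstressed RIPs had r = 0.42. The numbers are not taken as pairs in the fit. With the replicate block the numbers of members called did not change: 5 in the stressed and 3 in the unstressed TIAR RIP against input, 8 and 8 for G3BP1, and 7 and 6 for TIAR against G3BP1. Genes of low signal cannot be separated from background, and 3 arrays a group limit the precision.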
